A study of Arabidopsis thaliana with 4 samples.

Results

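Genes that respond to darkness and sugar starvation were followed in rosette leaves of Arabidopsis thaliana through 8 of the 22810 probe sets of the Affymetrix ATH1 array, a 1-colour array in which a probe set is the group of short oligonucleotides that measures a transcript. Of these, 6 were chosen for the known response of their genes: ASN1 (also DIN6), SEN1 (also DIN1), DIN10, DIN2, DRM1 (also DYL1) and BCAT2. The other 2, for AT3G15630 and AT2G15890, were chosen because their signal was 4-fold higher in the antisense plants on these same arrays. Their genotype difference is therefore given as a description without a test. The choice of the first 6 was also made with earlier results of these data known.

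The study compared wild-type plants with the single line AS12, Col-0 plants that carry an antisense construct against AOX1a (At3g22370) behind the 35S promoter of cauliflower mosaic virus, which is active in most tissues. AOX1a encodes a mitochondrial alternative oxidase. Each genotype was measured on 2 arrays, each hybridised with pooled leaf RNA of several plants: 7 plants for wild type 1, 9 for wild type 2, 9 for antisense 1 and 8 for antisense 2. All plants were grown at 23 °C without fertilizer in 14 h days with light at 350 µmol photons m-2 s-1, and at 21 days leaves of the third or the fourth pair were taken shortly before noon, so every array describes leaves in the light. All p-values have only the spread between these pools, 2 a genotype, to rest on.

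Leaf cells in the dark, or short of sugar, activate the protein kinase SnRK1, which together with bZIP transcription factors shifts metabolism from growth to the use of reserves. The genes switched on in this state were first collected in Arabidopsis as the dark-inducible, or DIN, genes, and sugar and light repress many of them. Several encode enzymes that take apart amino acids, cell-wall sugars or storage sugars, and others are known mainly as markers of dormancy or leaf senescence.

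No probe set could be tied to a gene other than these 8, for which the pairing of probe set and locus was given with the selection. AOX1a, other genes of the starvation response and markers of leaf and other tissues were therefore not analysed here, and neither the antisense label nor the tissue could be checked against its transcripts. All 8 loci are protein-coding in the RefSeq gene table of assembly TAIR10.1. ASN1, DIN2 and AT3G15630 lie on chromosome 3, DRM1 and BCAT2 on chromosome 1, AT2G15890 on chromosome 2, SEN1 on chromosome 4 and DIN10 on chromosome 5. That table gives AT2G15890 the symbol MEE14 (maternal effect embryo arrest 14) and gives AT3G15630 no name beyond its locus.

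Signals are in the arbitrary units of the array software, scaled by the authors so that all 4 arrays share one average. As a guide to how dim a probe set is, 27 control probe sets for bacterial transcripts, which match no plant transcript, read 7.15 in the median and at most 97.2 on any array. Of the 8 plant probe sets, 6 were above the limit for testing, a mean signal of 97.4, and those for DIN2 and DRM1 were below it. Both of these read under 97.2 on all 4 arrays, and BCAT2 did so on wild type 1 and antisense 2. In leaf RNA, fewer cells expressing a gene and less RNA per cell cannot be told apart.

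**Figure D1:**
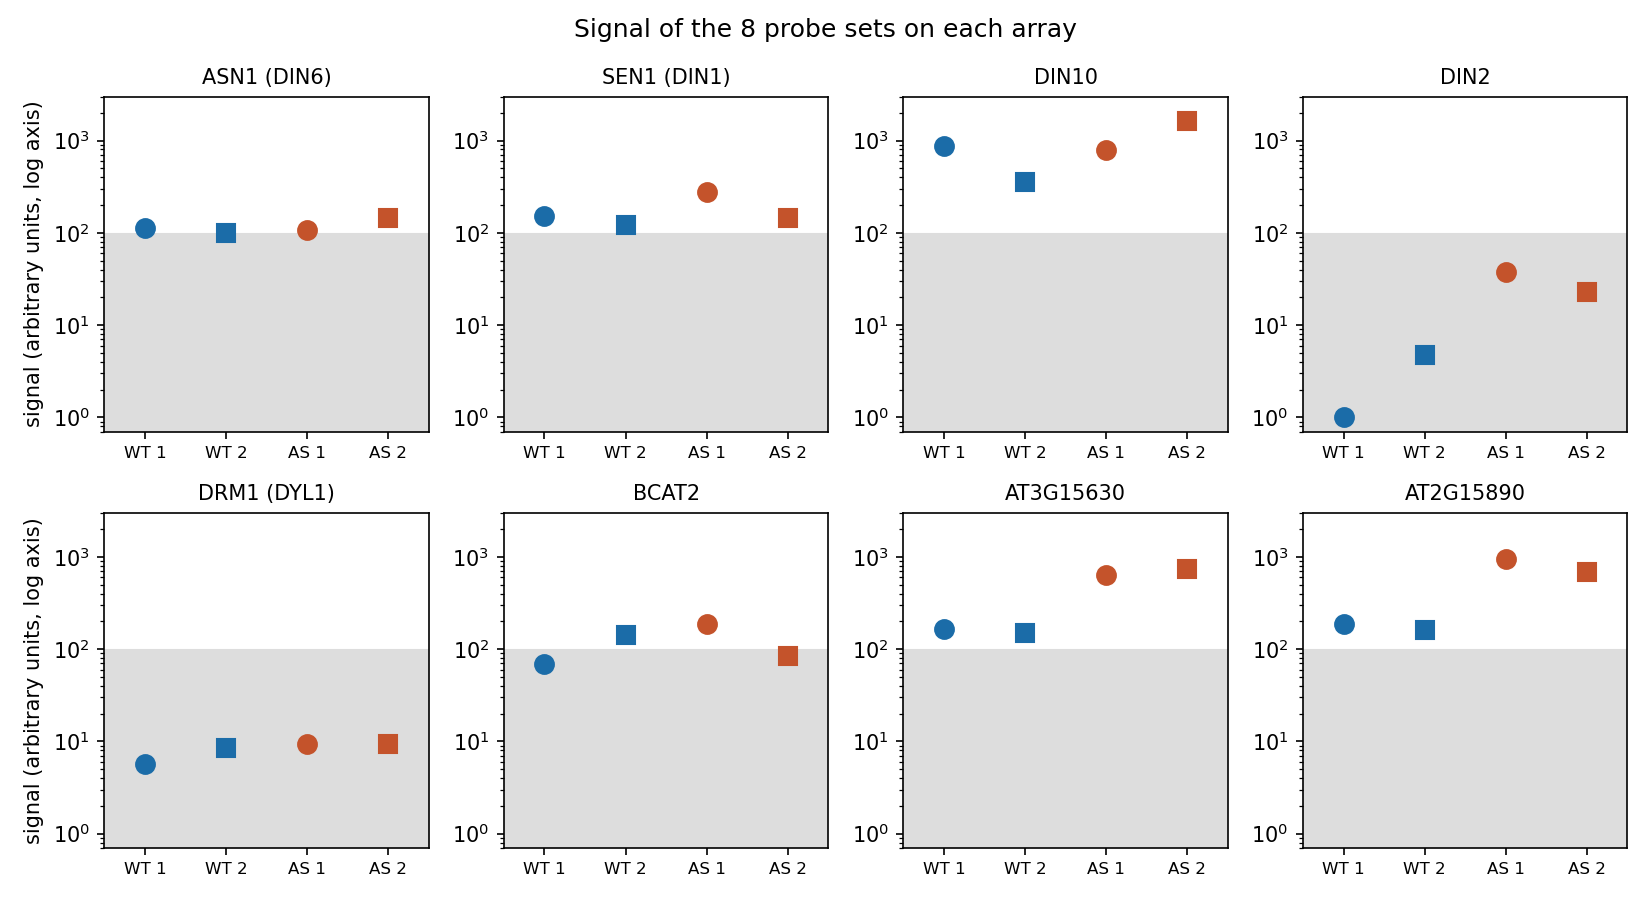
Signal of the 8 probe sets (log axis, arbitrary units) on the 2 wild-type arrays (WT, blue) and the 2 antisense arrays (AS, red), circles for arrays numbered 1 and squares for arrays numbered 2; grey marks the range up to 97.2, the highest reading of a bacterial control. AT3G15630 and AT2G15890 lie between 149.8 and 187.0 on the wild-type arrays and between 635.7 and 944.3 on the antisense arrays, DIN10 spreads from 351.4 to 1641.4 across genotypes, and DIN2 and DRM1 lie wholly in the grey range.

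At an adjusted p of 0.05, limma called 0 of the 13648 tested probe sets (0%) higher in the antisense line and 0 (0%) lower. The lowest adjusted p was 0.054, and at an unadjusted p of 0.05 limma gave 230 higher (1.69%) and 149 lower (1.09%). None of the 4 tested genes chosen for function passed either threshold. All 6 genes chosen for function had a higher mean log2 signal in the antisense line, DIN2 and DRM1 among them from dim readings. For BCAT2 this turned around without wild type 1 and without antisense 1. With 1 array left out, the lowest log2 differences of ASN1, SEN1 and DIN10 were 0.02, 0.09 and 0.36. The median log2 difference of the 6 was 0.50, against -0.03 over all tested probe sets, and for the 4 of them that were tested it was 0.45. The count of 6 and these medians describe genes chosen with results known and are not evidence that the list differs from other genes.

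The enzymes of amino acid metabolism overlapped between the genotypes. ASN1 is the glutamine-dependent asparagine synthetase that stores and moves nitrogen as asparagine when carbon is short. Its probe set 252415_at read 113.0 and 98.9 in the wild type and 107.2 and 145.2 in the antisense line. The genotypes overlapped, with antisense 1 below wild type 1. The antisense mean was 1.18-fold higher (log2 difference 0.24 ± 0.29, SE; 95% interval of the fold 0.722 to 1.93; limma adjusted p 1.0).

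BCAT2 encodes a branched-chain aminotransferase, the family of enzymes that takes the amino group from leucine, isoleucine and valine as the opening step of their breakdown. Its probe set 264524_at read 69.7 and 141.4 in the wild type and 187.4 and 84.8 in the antisense line. Wild type 2 and antisense 1 were the high arrays, and each genotype held 1 high and 1 low array. Within the wild type the arrays differed 2.03-fold and within the antisense line 2.21-fold. The difference between genotype means was smaller, 1.27-fold (log2 difference 0.34 ± 0.51, SE; interval of the fold 0.542 to 2.98; limma adjusted p 1.0). It changed sign without wild type 1 (-0.17 on the log2 scale) and without antisense 1 (-0.23). The sign of the BCAT2 difference thus rested on single arrays.

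Among the genes of sugar metabolism, DIN10 is annotated as raffinose synthase 6, of the family that makes or turns over raffinose sugars. Its probe set 246114_at read 879.7 and 351.4 in the wild type and 781.5 and 1641.4 in the antisense line. Antisense 2 was the highest array, wild type 2 the lowest, and antisense 1 fell below wild type 1. Set against each wild-type array in turn, the antisense arrays gave 3 ratios of at least 1.5 and 1 of 0.888, with the highest at 4.67. The antisense mean was 2.04-fold higher (log2 difference 1.03 ± 0.51, SE; interval of the fold 0.860 to 4.83; limma adjusted p 1.0, unadjusted 0.091). With 1 array left out at a time this fold lay between 1.29, without wild type 2, and 3.22, without wild type 1.

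DIN2 encodes beta-glucosidase 30, an enzyme that releases glucose from glucosides. Its probe set 251428_at read 1.0 and 4.7 in the wild type and 37.4 and 22.8 in the antisense line. Both antisense arrays lay above both wild-type arrays, and the 4 ratios ran from 4.85 to 37.4. All 4 readings were nevertheless within the range of the bacterial controls, and both wild-type readings were under 8.1, the 10th percentile of all values on the 4 arrays. The size of a ratio against such readings depends on how low signals are treated: the mean ratio of 13.5-fold became 3.47-fold when 8.1 was added to every signal and 3.61-fold when lower signals were raised to 8.1. Fitted without a low filter, limma gave an adjusted p of 1.0 (unadjusted 0.0096). In the same unfiltered set of 22746 probe sets, 2.37% had all 4 ratios at least 1.5-fold higher in the antisense line, against 0.528% of the tested ones, so dim probe sets reach this mark more often.

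**Figure D2:**
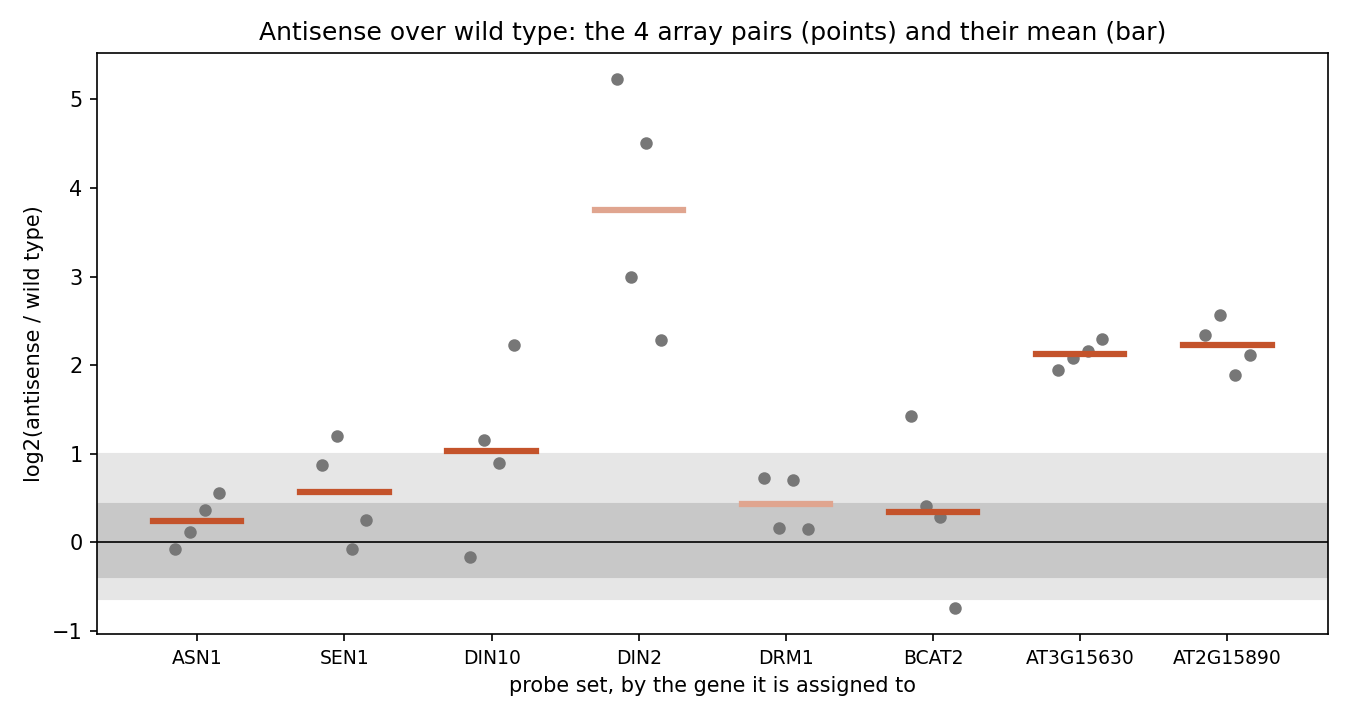
Log2 ratio of antisense to wild type for each of the 4 pairs of arrays (grey points) and their mean (bar, pale where the probe set was below the limit for testing); the grey bands run from percentile 5 to 95 (dark) and 1 to 99 (light) of the mean differences of all tested probe sets. All 4 points lie above 0 for DIN2, DRM1, AT3G15630 and AT2G15890, while ASN1, SEN1, DIN10 and BCAT2 each have 1 point below 0.

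Of the markers of senescence and dormancy, SEN1 is a gene induced by darkness and during leaf senescence. Its probe set 253161_at read 151.8 and 121.0 in the wild type and 278.2 and 144.3 in the antisense line. Antisense 1 stood alone, and antisense 2 lay below wild type 1. The antisense mean was 1.48-fold higher (log2 difference 0.56 ± 0.36, SE; interval of the fold 0.806 to 2.71; limma adjusted p 1.0). Without antisense 1 the fold was 1.06 and without antisense 2 it was 2.05, with limma adjusted p from 0.41 to 1.0 over 9 alternatives.

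DRM1 belongs to the dormancy-associated and auxin-repressed proteins and is a marker of dormant buds. Its probe set 245668_at read 5.7 and 8.4 in the wild type and 9.4 and 9.3 in the antisense line. The genotypes did not overlap, but all 4 readings were near 7.15, the median of the bacterial controls, and the smallest gap was 1.11-fold. The mean ratio of 1.35-fold became 1.16-fold when 8.1 was added to every signal. At this signal a difference in DRM1 was not detectable, and the pairing of this probe set with DRM1 could not be checked against any other table.

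The 2 genes chosen for their difference spread less within each genotype than between the genotypes. The probe set for AT3G15630, 258225_at, read 164.7 and 149.8 in the wild type and 635.7 and 736.5 in the antisense line. Its antisense mean was 4.36-fold higher, and the 4 ratios ran from 3.86 to 4.92. The arrays of one genotype differed by 1.1-fold in the wild type and 1.16-fold in the antisense line. The probe set for AT2G15890, 265478_at, read 187.0 and 159.9 in the wild type and 944.3 and 691.0 in the antisense line. Its antisense mean was 4.67-fold higher, with ratios from 3.70 to 5.91, and its arrays differed by 1.17-fold in the wild type and 1.37-fold in the antisense line, the latter more than for 71.7% of tested probe sets. With 1 array left out the fold lay between 4.05 and 4.69 for AT3G15630 and between 3.996 and 5.46 for AT2G15890. Since the genotypes did not overlap, their direction was fixed by the choice. Their size was also chosen on these same arrays, so the narrow range of these folds is not independent support.

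The mark that picked these genes, a mean at least 4-fold higher in the antisense line, was met by 12 of the 13648 tested probe sets (0.0879%) and by 253 of all 22746 (1.11%), dim ones included. Among tested probe sets, just inside it at 4.01-fold, one not tied to a gene read 311.1 and 487.2 in the wild type and 1176.9 and 2072.1 in the antisense line. Just outside it, at 3.99-fold, another read 65.3 and 156.1 against 569.9 and 284.9. Both of these spread more widely than the chosen pair, with lowest ratios of 2.42 and 1.83. They were taken only for their place next to the mark, and the pair was chosen on this same contrast. Nothing about the reliability of the pair is read from this.

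Together, 3 of the 8 probe sets (DIN2, AT3G15630 and AT2G15890) were at least 1.5-fold higher in the antisense line in all 4 array pairs, which 0.528% of tested and 2.37% of all probe sets were. Since 2 of the 3 were picked on this contrast and the other is dim, nothing is read from that count. Both antisense arrays lay above both wild-type arrays for 4 of the 8, the same 3 and DRM1. The shares were 10.7% of tested and 12.4% of all probe sets. Of these 4 genes, AT3G15630 and AT2G15890 were picked on this contrast, and DIN2 and DRM1 are dim. Nothing is therefore read from this count either.

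Any 4 unequal readings divide into 2 high and 2 low arrays in 1 of 3 ways. The other 4 genes, not divided by genotype, were therefore bound to fall into another arrangement. Their differences within a genotype show which. For ASN1 and DIN10, wild type 1 and antisense 2 were the high arrays. For BCAT2 the same arrays were the low ones. SEN1 was higher on both arrays numbered 1, with a smallest ratio of only 1.05-fold, wild type 1 over antisense 2. Wild type 1 and antisense 2 stood apart from the other arrays, in either direction, for 49.8% of tested probe sets and 3 of the 8 members. The genotypes did so for 26.8% of tested probe sets and the replicate numbers for 23.3%. Of the 8 members, 2 were picked on the genotype contrast, and DIN2 and DRM1 were not tested. The 3 of 8 is therefore not comparable with these shares, and nothing is read from it.

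DIN10 and BCAT2 carried this arrangement with opposite sign and by a like amount. DIN10 was 2.29-fold higher on wild type 1 and antisense 2 than on the other arrays, and BCAT2 2.12-fold lower. Among tested probe sets, the change of DIN10 between the wild-type arrays was larger than that of 99.2% and between the antisense arrays than that of 96.4%; for BCAT2 these were 97.8% and 97.1%. These shares set BCAT2 beside tested probe sets of every brightness, most of them brighter. Its mean log2 signal stood at percentile 42.5 of all probe sets, against 81.9 for DIN10. Its low readings, 69.7 and 84.8, were under 97.2, the highest bacterial control. For BCAT2 all 4 ratios between the arrays so divided were at least 1.67-fold, and 2.75% of tested probe sets reached 1.5-fold in this way in either direction. For DIN10 the smallest of them was 1.13-fold and for ASN1 it was 1.05-fold.

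**Figure D3:**
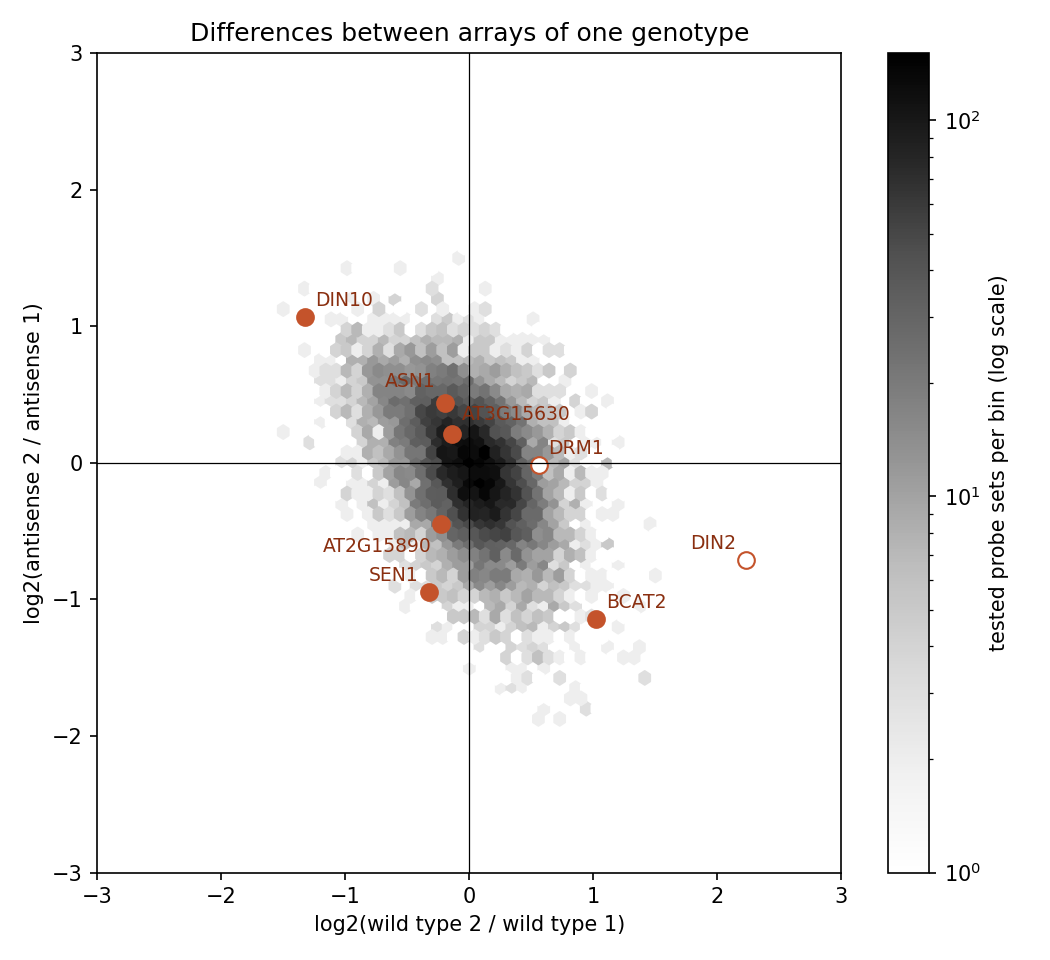
Log2 difference between the 2 wild-type arrays (horizontal) and between the 2 antisense arrays (vertical) for the 13648 tested probe sets (grey, darker where more lie) and the 8 described here (red, open where below the limit for testing). DIN10 lies at -1.32 and 1.07 and BCAT2 at 1.02 and -1.14, at opposite ends of the cloud, while AT3G15630 and AT2G15890 lie within its dense part.

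Some other measures divided the arrays in the same way. Any control ratio with 4 unequal values must divide them in some such way, so nothing is read from a match with a gene. The pools of wild type 1 and antisense 2 held 7 and 8 plants, against 9 in each of the others. The ratio of 3′ to 5′ signal of ubiquitin, which rises as RNA is degraded, was 4.68 in wild type 1 and 3.82 in antisense 2. It was 3.16 in wild type 2 and 3.45 in antisense 1, and 3 of 6 such control ratios were higher in the same pair of arrays. The part of these pool sizes and ratios in the values of ASN1, DIN10 and BCAT2 was not tested. Another 2 of the 6 were higher on both arrays numbered 1, as SEN1 was by a smallest ratio of 1.05-fold. The first actin ratio was 4.74 and 5.40 there and 4.15 and 4.11 on the arrays numbered 2, and the first GAPDH ratio was 1.66 and 1.72 there and 1.47 and 1.57 on the others; their part in the SEN1 values was not tested. The second GAPDH ratio was the 1 of the 6 that separated the genotypes, at 1.08 and 1.12 in the wild type and 1.17 and 1.28 in the antisense line; its part in the values of DIN2, DRM1, AT3G15630 and AT2G15890 was not tested.

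The members had no single pattern over the 4 arrays. Distance was taken between log2 profiles centred on their own mean (Euclidean, over 4 arrays, in log2 units). AT3G15630 and AT2G15890 were 0.484 apart, ASN1 and DRM1 0.651, and DIN10 and BCAT2 2.38, while DIN2 was at least 2.32 from every other member. AT3G15630 and AT2G15890 were both picked for a rise on the antisense arrays, which by itself brings their profiles together. DRM1 was too dim for a difference to be detected. Nothing is read from the nearness of either pair. The mean profile of the 8 lay low on the wild-type arrays (-0.77 and -0.57) and high on the antisense arrays (0.77 and 0.57), and DIN2 lay at a distance of 2.83 from it. That shape follows largely from the selection and from dim DIN2: these 3 genes supplied -0.62 of the -0.77 on wild type 1 and 0.57 of the 0.77 on antisense 1. Without them the mean of the other 5 was -0.23 and -0.29 on the wild-type arrays and 0.32 and 0.20 on the antisense arrays. A probe set near the mean of the 8 is thus near a shape set mostly by those 3 genes together. It need not be like each of them: 13636 of the 13642 other tested probe sets were nearer to that mean than DIN2. The nearest to the mean of the 8 were 255654_at, at a distance of 0.056, and 265918_at, at 0.203. Probe set 255654_at read 58.1 and 67.2 in the wild type and 176.4 and 152.6 in the antisense line, and 265918_at read 231.5 and 316.0 against 759.4 and 697.2. The wild-type readings of 255654_at were within the range of the bacterial controls, so it passed the limit for testing only through its antisense arrays. The distance from DIN10 itself to that mean was 1.43, and 51.8% of the other tested probe sets were nearer.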

How the data were processed

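For each array, the deposited table lists the linear signal intensity of every probe set, computed by the authors with Affymetrix protocols and MicroArray Suite 5.0, per the labels. The authors' intensities had one trimmed mean on all 4 arrays and were not scaled again; detection calls were not used here. Signals were log2-transformed, 64 control probe sets and the 40% of the others with the lowest mean log2 were left out, and 13648 were fitted with limma 3.58.1 in R 4.3.3 (eBayes with an intensity trend, 2 residual and 4.25 prior degrees of freedom, Benjamini-Hochberg adjustment). A fold change is 2 to the power of the log2 difference of means. The 95% interval reached a factor of 1.46 to either side in the median. An exact two-sided permutation test of 2 against 2 arrays cannot go below 0.333, so none was run. The fit was run on simulated data with independent errors, and the check was only that the median size of added differences was recovered. It does not show how reliable calls on these 4 arrays are.

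The members and lists were chosen with earlier results of these data known. The planned rule named the 8 genes, AOX1a, genes from lists by function, the 6 probe sets nearest to the members' mean profile and those next to the 4-fold mark. Without a table that pairs probe sets with genes, AOX1a, the lists and the tissue markers were not analysed, 2 of the 6 nearest are given by identifier and those next to the mark by value only. Equal array numbers are tied together by no label and were used as pairs only in 1 alternative fit, the replicate block; the differences between arrays 1 and 2 correlated at -0.42 between the genotypes across tested probe sets. The array quality sheet was not used here.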

Additional observations from a re-analysis of the deposited data

How the results depend on the processing

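With 2 arrays per genotype and dim readings for DIN2 and DRM1, differences of the size seen in ASN1, SEN1, DIN10 and BCAT2 could not be told from the spread. The counts of probe sets called by limma were 0 higher and 0 lower and stayed so with the replicate block, no low filter, a 60% filter and eBayes without a trend. Quantile normalization gave 0 higher and 1 lower and the log2 offset of 8.1 gave 1 and 1. Between 0 and 4 probe sets were called higher, and 0 to 1 lower, when 1 array was left out, a lone array being assumed to vary like the others. A crossed pairing as a block (wild type 1 with antisense 2), chosen after seeing the data, called 42 higher and 2 lower. ASN1, SEN1, DIN10 and BCAT2 did not pass 0.05 under any setting that tested them; the 60% filter left out all of these but DIN10. The limma adjusted p of DIN10 was 0.055 with the crossed pairing and 0.69 to 1.0 under 10 other settings. The log2 difference of BCAT2 reversed to -0.166 without wild type 1 and to -0.227 without antisense 1, and reached 0.917 without antisense 2. The other 63 values of single genes under 11 other settings kept their sign. The count of 3 members at least 1.5-fold higher in every pair was 3 under quantile normalization, the offset and signals raised to the 10th percentile (added after seeing the data), and 4 without any 1 array, where only 2 pairs have to be met. Medians of the planned gene lists were not run, because no list gene could be tied to a probe set. The cause of these shifts was not tested.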
